A study of Mus musculus with 6 samples.

Results

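Amino acid carriers of 7 solute carrier families were described in RNA sequencing counts of leukaemia stem and progenitor cells, as all genes whose symbol has the form Slc1a, Slc3a, Slc6a, Slc7a, Slc36a, Slc38a or Slc43a followed by a number. The rule uses the name alone and took 59 of the 24015 genes listed. The cells were sorted from mice in which an acute myeloid leukaemia made with the fusion oncogene MLL-AF9 had fully developed. Of 6 libraries, 3 (LSPCT) came from tamoxifen-treated mice and 3 (LSPC) from untreated mice. For both groups, lin-cKit+ marrow progenitors were taken from NIKERT2 mice to make the leukaemia, and these mice carry a NIK transgene at the Rosa locus behind a loxP-flanked stop and a CreERT2 recombinase, also at Rosa. Tamoxifen activates the recombinase, which removes the stop, so tamoxifen, active Cre and the kinase NIK (gene Map3k14) changed together and cannot be told apart in these samples. The labels give no age, and do not say whether each library of a group is a different mouse, so a p-value reflects only how far these libraries vary, which may be technical.

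Cells cannot make all the amino acids they use, and carriers in the plasma membrane bring them in. Some of these carriers use the sodium gradient, some exchange one amino acid for another, and others sit in the lysosome, where amino acids released from proteins are sensed by the growth regulator mTORC1. The families differ in cargo: Slc1 holds glutamate and small neutral amino acid carriers, Slc7 holds cationic carriers and light chains that need a heavy chain of the Slc3 family, Slc36 holds proton-coupled carriers, Slc38 and Slc43 hold neutral amino acid carriers, and Slc6 holds carriers of neurotransmitters, osmolytes and amino acids. In leukaemia cells, glutamine and leucine uptake through Slc1a5 and through Slc7a5 with Slc3a2 is well studied.

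Total counts were 19999071 to 22454753 in LSPCT libraries and 20410001 to 26773176 in LSPC libraries. Map3k14 had 129.9, 190.6 and 159.5 CPM (read counts relative to the library total, scaled by edgeR's TMM factor) in LSPCT libraries, against 26.5, 24.2 and 28.8 CPM in LSPC libraries, and counts do not tell transgene from endogenous transcripts. All 14 markers of leukaemia stem and progenitor cells, among them Kit and Cd34, were expressed enough to be tested, with summed levels of 3002 to 3402 CPM in LSPCT and 2909 to 3255 CPM in LSPC libraries. Of these, 1 was higher (Fcgr2b, log2 0.63) and 3 were lower (Flt3, Fcgr3 and Cebpa, log2 -1.20, -0.49 and -0.43). These make 28.6%, against 17.2% of all genes tested. Cebpa did not pass without LSPCT replicate 3, LSPC replicate 1 or LSPC replicate 2. LSPCT replicate 1 stood apart on the second principal component of log2 CPM (18.9% of the variance), at 33.03 against -15.8 and -13.3 for LSPCT replicates 2 and 3. It also had the highest sum of macrophage markers, 2208 CPM, against 1128 and 1180 CPM in the other LSPCT libraries and 428 to 606 CPM in LSPC libraries. Of the 18 tested macrophage markers, Cd68 was among those that did not pass. In LSPCT, 12 of the 18 were higher (66.7%, against 8.96% of all genes tested) and none lower. That count was 11 without LSPCT replicate 1, 4 without LSPC replicate 1, 4 without LSPC replicate 2, 8 without LSPC replicate 3 and 3 with limma voom. Carriers whose call or sign changed when LSPCT replicate 1 was left out are given with and without it.

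Of the 59 carrier genes, 33 had enough counts to be tested, 12 had no count in any library, and the other 14 had at most 26 counts in a library. Genes passed where edgeR's quasi-likelihood test gave an adjusted p under 0.05 over all 12729 genes tested. By that rule 3 carrier genes rose with tamoxifen, Slc6a12, Slc6a13 and Slc43a3, and 3 fell, Slc36a1, Slc36a2 and Slc7a6. These 6 of 33 tested genes make 18.2%, against a background of 17.2% of all genes tested (8.96% higher and 8.24% lower), a share close to the background. The groups did not overlap for 14 of the 33 (42.4%), with 6 above and 8 below, against a background of 37.7% of all genes (18.1% above and 19.6% below). The median log2 fold change was -0.075 over the tested carriers and -0.0025 over all genes tested. Without LSPCT replicate 1, 5 carriers were higher and 6 lower, with the first 6 still called, and 25.1% of all genes passed. Without LSPC replicate 1 and without LSPC replicate 2, the same 6 carriers passed and no other did, while 7.83% and 9.51% of all genes passed.

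**Figure D1:**
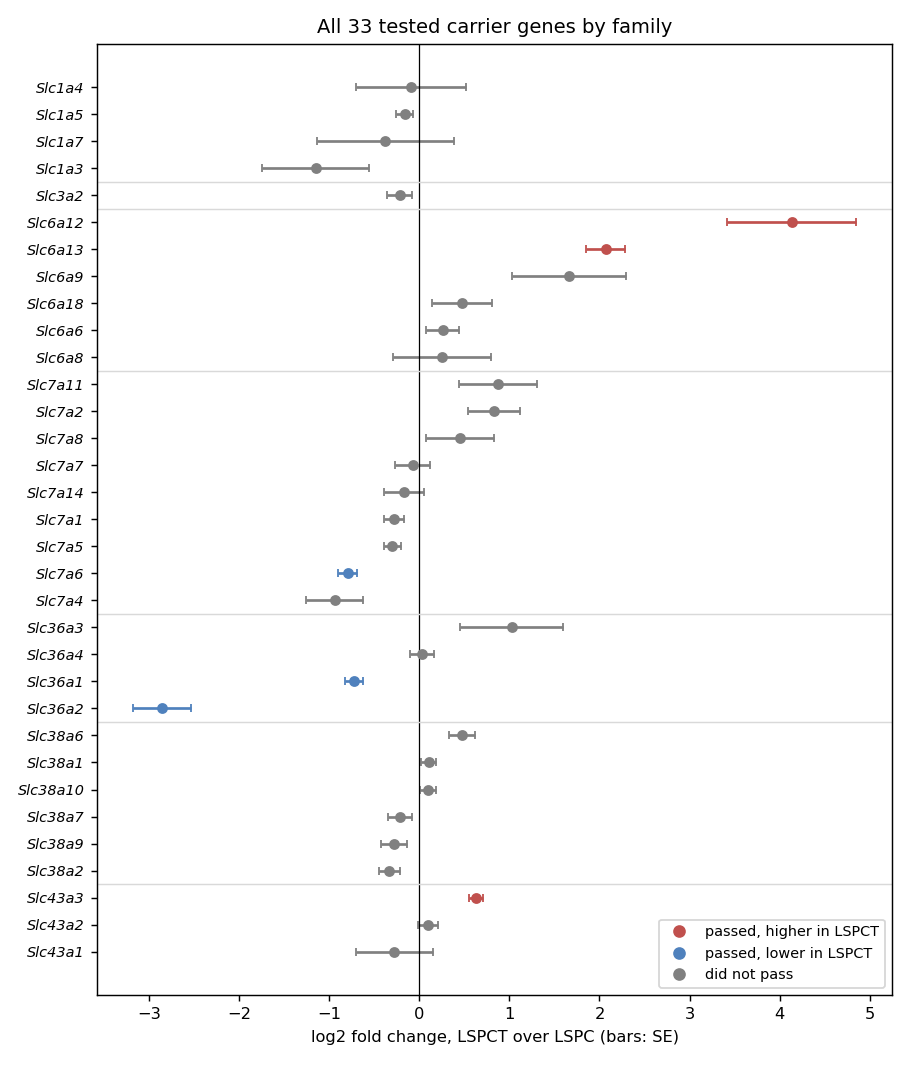
Fitted log2 fold change (LSPCT over LSPC; x axis) of the 33 tested carrier genes, grouped by family, with bars of 1 standard error. The genes that passed are coloured: 3 lie right of 0 and 3 left of it, and every tested Slc6 gene has a positive value.

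The position of the called genes is shown with their promoters, because 4 of the 6 are neighbours on 2 chromosomes. In the RefSeq genes of GRCm38, Slc6a13 and Slc6a12 stand next to each other on chromosome 6, and Slc36a2 and Slc36a1 next to each other on chromosome 11. The 250 bases before the most upstream RefSeq start are given 5′ to 3′ for 3 of them, from RefSeq's GRCm38.p6, which is not the build (mm9) named for the counts. All 3 lie on the plus strand, Slc6a13 at chr6:121300038-121300287, Slc6a12 at chr6:121342324-121342573 and Slc36a1 at chr11:55204090-55204339. Capitals mark the motif matches described next.
Slc6a13: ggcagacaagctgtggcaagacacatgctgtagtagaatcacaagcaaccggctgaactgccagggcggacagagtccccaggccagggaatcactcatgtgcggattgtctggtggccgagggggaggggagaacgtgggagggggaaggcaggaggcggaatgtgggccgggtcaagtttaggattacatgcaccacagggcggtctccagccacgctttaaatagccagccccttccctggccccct
Slc6a12: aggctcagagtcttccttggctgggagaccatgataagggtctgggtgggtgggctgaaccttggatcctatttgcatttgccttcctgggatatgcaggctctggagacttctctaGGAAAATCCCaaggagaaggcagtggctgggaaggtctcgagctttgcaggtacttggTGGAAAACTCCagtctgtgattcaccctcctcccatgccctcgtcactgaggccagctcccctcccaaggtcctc
Slc36a1: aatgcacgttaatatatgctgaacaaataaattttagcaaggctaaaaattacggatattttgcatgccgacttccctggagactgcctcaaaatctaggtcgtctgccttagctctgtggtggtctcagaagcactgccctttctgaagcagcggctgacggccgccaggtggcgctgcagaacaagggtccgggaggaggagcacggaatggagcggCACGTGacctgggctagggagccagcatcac

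The motifs searched on both strands were the kappa-B consensus of NF-kB factors, the tonicity element of NFAT5, the C/EBP-ATF element TGATGNAA, the E-box CACGTG and the core of the interferon response element. The Slc6a12 window held a kappa-B match on the opposite strand, starting 133 bases before the start, and a tonicity element match 75 bases before it, and these do not overlap. The Slc36a1 window held an E-box, whose letters read the same on both strands, 31 bases before the start. The Slc6a13 window held none of the 5 motifs. Among 27025 mouse promoters of the same length, 3.74% held the kappa-B consensus, 4.34% the tonicity element, 3.53% the C/EBP-ATF element, 6.04% the E-box and 3.05% the interferon core. Of the 23 tested carriers with a promoter in the table, 2 held the kappa-B consensus, 3 the tonicity element, 2 the C/EBP-ATF element, 5 the E-box and none the interferon core. A match describes letters in a window and is no evidence of binding.

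The Slc6 family held the largest rises. Slc6a12 encodes the betaine and GABA carrier BGT1, an osmolyte carrier. It had 8.80, 16.7 and 10.5 CPM in LSPCT libraries, against 0.696, 0.0424 and 1.26 CPM in LSPC libraries. Every LSPCT library was above every LSPC library, and LSPC replicate 2 held 1 count. The LSPCT mean was 17.97 times the LSPC mean. The fitted log2 fold change was 4.14 (SE 0.72, edgeR adjusted p = 0.00670). Over the alternatives it ran from 3.58 without LSPC replicate 2 to 5.07 without LSPC replicate 3. The highest adjusted p was 0.0382, by edgeR without LSPC replicate 1. Slc6a13 encodes a closely related GABA and taurine carrier. It had 22.8, 24.5 and 26.6 CPM in LSPCT libraries, against 6.76, 4.03 and 6.83 CPM in LSPC libraries, a mean ratio of 4.19. The groups did not overlap, and the log2 fold change was 2.07 (SE 0.22, edgeR adjusted p = 0.000708).

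The neighbours of this pair were not uniform. Usp18, an interferon-induced protease gene on the Slc6a13 side, had 8.30, 4.87 and 7.88 CPM in LSPCT libraries, against 0.447, 1.48 and 1.86 CPM in LSPC libraries, and rose (log2 2.45, SE 0.48, edgeR adjusted p = 0.0114). The next gene, Tuba8, a tubulin, fell by 1.25 on the log2 scale (edgeR adjusted p = 0.0297), which did not pass without LSPCT replicate 3 (0.100), LSPC replicate 1 (0.103) or LSPC replicate 3 (0.0883). Iqsec3, on the Slc6a12 side, was not tested.

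The remaining tested Slc6 genes had positive fold changes that did not pass. Slc6a6, the taurine carrier, had 99.6, 147 and 156 CPM in LSPCT libraries, against 109, 96.7 and 131 CPM in LSPC libraries (log2 0.26, SE 0.18, edgeR adjusted p = 0.375). LSPCT replicate 1 lay among the LSPC libraries, and without it Slc6a6 passed (log2 0.44, edgeR adjusted p = 0.0372). Slc6a9, the glycine carrier GlyT1, was low throughout, at 0.487 to 1.30 CPM in LSPCT and 0.0994 to 0.339 CPM in LSPC libraries (log2 1.66, edgeR adjusted p = 0.114). Slc6a18, a neutral amino acid carrier of kidney, and Slc6a8, the creatine carrier, differed by 0.47 and 0.25 (edgeR adjusted p = 0.377 and 0.791), and Slc6a8 was -0.25 without LSPCT replicate 1. The 11 Slc6 genes not tested include the serotonin carrier Slc6a4, with at most 2 counts in a library.

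**Figure D2:**
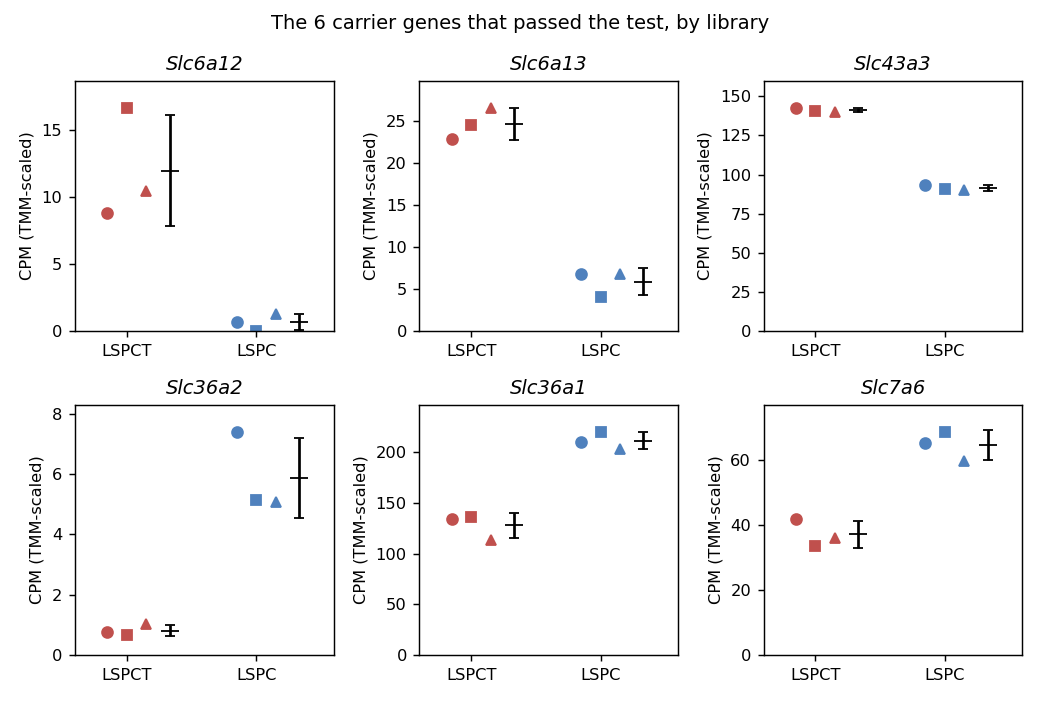
TMM-scaled CPM (y axes, each from 0) of the 6 carrier genes that passed, by library (x axis: LSPCT left, LSPC right; circles, squares and triangles are replicates 1, 2 and 3; black bars are the mean and SD of 3 libraries). In each panel the groups are apart, with Slc6a12, Slc6a13 and Slc43a3 above and Slc36a2, Slc36a1 and Slc7a6 below in LSPCT.

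Slc43a3 was the only Slc43 gene that passed. Although it is grouped with amino acid carriers by sequence, its product is known to carry purine nucleobases. It had 143, 141 and 140.2 CPM in LSPCT libraries, against 93.3, 90.6 and 90.3 CPM in LSPC libraries. The libraries of each group lay close together and the groups did not overlap (log2 0.63, SE 0.08, edgeR adjusted p = 0.00124, mean ratio 1.54). Slc43a2, the system L carrier LAT4, had 63.6, 67.7 and 66.6 CPM in LSPCT libraries, against 59.5, 54.9 and 71.0 CPM in LSPC libraries, and overlapped (log2 0.094, edgeR adjusted p = 0.612). Slc43a1, the related LAT3, was at 1.16 to 3.15 CPM in LSPCT and 1.89 to 2.80 CPM in LSPC libraries (log2 -0.28, edgeR adjusted p = 0.708).

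In the Slc36 family, 2 of 4 tested genes passed as lower and none as higher, where 8.24% and 8.96% of all genes tested did. With 4 genes, these shares were not compared. Slc36a1 encodes PAT1, a proton-coupled carrier of small neutral amino acids found in lysosomes. It had 134, 136 and 113 CPM in LSPCT libraries, against 209.8, 220.4 and 204 CPM in LSPC libraries. All LSPCT libraries were lower (log2 -0.73, SE 0.10, edgeR adjusted p = 0.00196), and the LSPC mean was 1.65 times the LSPCT mean. Slc36a2 encodes the related PAT2. It had 0.750, 0.65 and 1.02 CPM in LSPCT libraries, against 7.41, 5.13 and 5.09 CPM in LSPC libraries. This was the largest fall among the carriers (log2 -2.85, SE 0.32, edgeR adjusted p = 0.000943), with an LSPC mean 7.29 times the LSPCT mean.

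Of the other Slc36 genes, Slc36a4, the carrier PAT4, had 17.7, 21.2 and 22.7 CPM in LSPCT libraries, against 20.6, 20.9 and 18.7 CPM in LSPC libraries. These overlapped, and the log2 difference of 0.034 (edgeR adjusted p = 0.890) was -0.033 without LSPCT replicate 3 and -0.0095 without LSPC replicate 3. Slc36a3, the third gene of the chromosome 11 group, was at 0.55 to 0.882 CPM in LSPCT and 0.127 to 0.557 CPM in LSPC libraries and did not pass (log2 1.02, edgeR adjusted p = 0.263). Beyond Slc36a3, Gm2a, the lysosomal activator of ganglioside breakdown, rose by 0.52 (edgeR adjusted p = 0.00571). On the other side of Slc36a1 lies Fat2, which was not tested, and then the matrix gene Sparc, which rose by 2.14 (edgeR adjusted p = 0.00893). The fall was thus seen in Slc36a1 and Slc36a2, and the nearest tested genes on either side had positive fold changes.

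**Figure D3:**
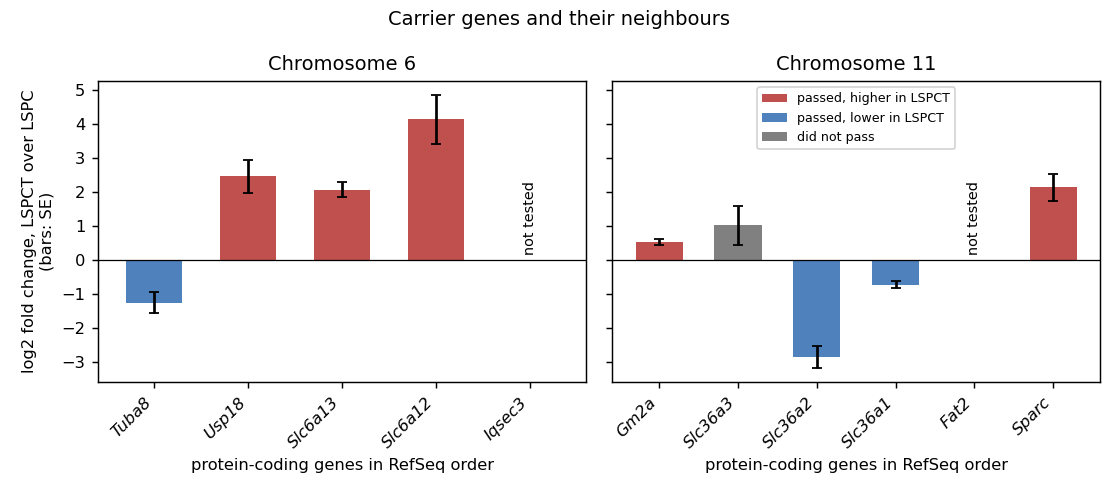
Fitted log2 fold change (LSPCT over LSPC; y axis, bars of 1 standard error) of protein-coding genes in RefSeq order (x axis, not to scale) around the called pairs on chromosomes 6 and 11. Slc6a13 and Slc6a12 are both above 0 next to Usp18, and Slc36a2 and Slc36a1 are both below 0 between genes that are above 0 or were not tested.

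The light chain gene Slc7a6 was the only one of 9 tested Slc7 genes that passed with all libraries (11.1%, against 17.2% of all genes tested). Its product, y+LAT2, pairs with the heavy chain Slc3a2 and exchanges cationic for neutral amino acids. It had 41.8, 33.5 and 36.1 CPM in LSPCT libraries, against 65.1, 68.8 and 59.6 CPM in LSPC libraries. The groups did not overlap (log2 -0.80, SE 0.11, edgeR adjusted p = 0.00209), and the LSPC mean was 1.74 times the LSPCT mean. Slc7a6os, a neighbouring gene, which the rule does not take, differed by -0.16 and did not pass (edgeR adjusted p = 0.414). Prmt7, the next gene on that side, was lower (log2 -0.35, edgeR adjusted p = 0.02795). Pla2g15, the neighbour on the other side, differed by -0.68 and did not pass (edgeR adjusted p = 0.0622). Prmt7 was not followed through the alternatives.

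The heavy chain Slc3a2, which encodes CD98hc and serves all these light chains, had 122, 88.2 and 88.5 CPM in LSPCT libraries, against 122, 109 and 115 CPM in LSPC libraries. LSPCT replicate 1 was level with the highest LSPC library while LSPCT replicates 2 and 3 were below all 3. The difference did not pass (log2 -0.22, SE 0.14, edgeR adjusted p = 0.325), and without LSPCT replicate 1 it did (log2 -0.38, edgeR adjusted p = 0.0128). Its partner Slc7a5, the leucine and glutamine exchanger LAT1, had 109, 114 and 110.1 CPM in LSPCT libraries, against 144, 142 and 123 CPM in LSPC libraries. All LSPCT libraries were lower, but the change missed the threshold (log2 -0.30, SE 0.09, edgeR adjusted p = 0.0608), passing with DESeq2 (adjusted p = 0.0246). The other heavy chain, Slc3a1, had at most 11 counts in a library and was not tested.

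Slc7a1, the main carrier of arginine and lysine in many cell types (CAT1), had 98.9, 126 and 120.02 CPM in LSPCT libraries, against 135.4, 149 and 135.4 CPM in LSPC libraries. The groups did not overlap and the difference did not pass (log2 -0.28, SE 0.11, edgeR adjusted p = 0.119). Among the low genes of the family, Slc7a2, a second arginine carrier, was at 3.70 to 5.44 CPM in LSPCT and 2.19 to 3.38 CPM in LSPC libraries (log2 0.83, edgeR adjusted p = 0.0875). Slc7a4, a relative of the cationic carriers, was at 1.95 to 3.70 CPM in LSPCT and 4.57 to 5.22 CPM in LSPC libraries (log2 -0.94, edgeR adjusted p = 0.0820). Both passed without LSPCT replicate 1 (log2 0.99 and -1.31), and Slc7a4 also with limma voom. Slc7a11, the cystine and glutamate exchanger xCT, was at 1.65 to 3.14 CPM in LSPCT and 0.763 to 1.89 CPM in LSPC libraries and did not pass (log2 0.87, edgeR adjusted p = 0.209). Slc7a14 (log2 -0.17, edgeR adjusted p = 0.651) and Slc7a7, the y+LAT1 light chain (-0.075, 0.829), also did not.

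In the Slc1 and Slc38 families, which hold glutamine and glutamate carriers, edgeR passed none of 4 and none of 6 tested genes. Of all genes tested 17.2% passed, and with so few members these shares were not compared. By family, 0 and 2 had an unadjusted p under 0.05, and DESeq2 passed Slc38a2 and Slc38a6. Slc1a3, described further below, passed without LSPCT replicate 1 (edgeR adjusted p = 0.00296). Slc1a5, the glutamine carrier ASCT2, had 226, 241 and 197 CPM in LSPCT libraries, against 255, 245 and 243 CPM in LSPC libraries. Every LSPCT library was lower, by little relative to the spread (log2 -0.16, SE 0.09, edgeR adjusted p = 0.283). Slc38a2, the sodium-coupled carrier SNAT2, had 216, 259 and 289.6 CPM in LSPCT libraries, against 321, 329 and 312 CPM in LSPC libraries. These also did not overlap (log2 -0.33, SE 0.11, edgeR adjusted p = 0.0803), and the difference passed with DESeq2 (adjusted p = 0.0299) and without LSPCT replicate 3 (log2 -0.43, edgeR adjusted p = 0.0460). Its neighbour Slc38a1, the related SNAT1, had 250.5, 265 and 296 CPM in LSPCT libraries, against 253, 254 and 249 CPM in LSPC libraries, and overlapped (log2 0.10, SE 0.09, edgeR adjusted p = 0.467).

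The Slc38 carriers of the lysosome gave small negative differences. Slc38a9, which signals lysosomal arginine to mTORC1, had 27.3, 26.9 and 24.9 CPM in LSPCT libraries, against 25.3, 37.4 and 33.4 CPM in LSPC libraries (log2 -0.28, edgeR adjusted p = 0.238). Slc38a7, which exports glutamine from lysosomes, had 18.3, 21.8 and 17.04 CPM in LSPCT libraries, against 22.2, 23.7 and 20.5 CPM in LSPC libraries (log2 -0.21, edgeR adjusted p = 0.326). Both overlapped between groups. Slc38a10 had 269, 279.6 and 239 CPM in LSPCT libraries, against 262, 246 and 228 CPM in LSPC libraries, with overlap (log2 0.10, edgeR adjusted p = 0.526). Slc38a6 was above all LSPC libraries in each LSPCT library, at 13.0 to 13.6 against 9.30 to 9.95 CPM, and missed the threshold (log2 0.47, SE 0.15, edgeR adjusted p = 0.0614). It passed with DESeq2 (adjusted p = 0.0368) and limma voom (0.0496). Trmt5, a tRNA methyltransferase gene, overlaps Slc38a6 in RefSeq by whole gene span, introns included. The counts of either may include reads of the other, or lack shared reads, if strand was not used and exons overlap. The same holds for Slc7a7 and Oxa1l, which averaged 79.5 CPM in LSPCT and 88.3 CPM in LSPC libraries, well above Slc7a7. It also holds for Slc6a9 and Ccdc24, which was not tested.

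The 26 carriers not tested included carriers best known from brain and kidney, such as the glutamate carriers Slc1a1 and Slc1a2. Slc1a2 (26 counts in its highest library), Slc6a2 (16), Slc1a1 (13), Slc3a1 (11), Slc7a3 (9), Slc38a4 (9), Slc6a15 (6), Slc6a4, Slc6a17 and Slc6a19 (2 each) and Slc6a11, Slc7a9 and Slc7a13 (1 each) were among those with counts. No count was found in any library for Slc1a6, Slc6a3, Slc6a5, Slc6a7, Slc6a14, Slc7a10, Slc7a12, Slc7a15, Slc38a3, Slc38a5, Slc38a8 and Slc38a11.

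**Figure D4:**
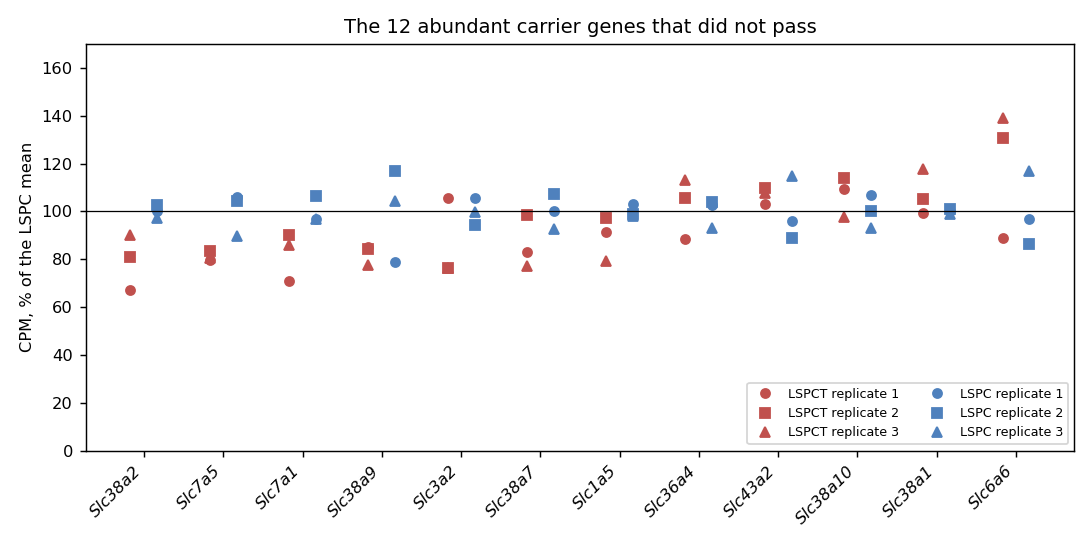
CPM of each library as a percentage of the LSPC mean of the gene (y axis, from 0; line at 100) for the 12 carrier genes that averaged at least 20 CPM and did not pass (x axis, ordered by fold change; red LSPCT, blue LSPC; symbols mark replicates). All 3 LSPCT libraries lie below all 3 LSPC libraries for Slc38a2, Slc7a5, Slc7a1 and Slc1a5, and for none of the 12 do they lie above. Over all genes tested, 19.6% lay below and 18.1% above. The 12 leave out carriers that passed, such as Slc43a3 (above) and Slc36a1 and Slc7a6 (below).

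Of these 12 abundant carriers, 7 had negative and 5 positive log2 fold changes. Levels between genes were compared per kb of exon, with GENCODE M21 lengths. Slc1a5 was the most abundant in both groups, at 80.1 ± 8.14 CPM per kb in LSPCT and 89.6 ± 2.30 CPM per kb in LSPC libraries (SD, n = 3). Slc43a3 ranked 2 of 33 in LSPCT libraries (54.6 ± 0.505 CPM per kb) and 7 in LSPC libraries (35.4 ± 0.645 CPM per kb). Slc38a2 was at 54.6 ± 7.99 CPM per kb in LSPCT, a level that did not differ from that of Slc43a3 beyond the spread, and at 68.8 ± 1.85 CPM per kb in LSPC libraries, where it ranked 2. The deposited counts come from another annotation, so these lengths are approximate.

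LSPCT replicate 1 differed from the other LSPCT libraries in several carriers and in both directions. It stood at 4.94 times their mean for Slc1a7, 0.199 times for Slc1a4 and 0.658 times for Slc6a6. Slc7a8 and Slc1a3 are examples where it was higher. Slc7a8, the LAT2 light chain, had 31.2, 10.96 and 12.3 CPM in LSPCT libraries, against 12.9, 11.95 and 14.9 CPM in LSPC libraries. LSPCT replicate 1 stood at 2.69 times the mean of the other LSPCT libraries, and the log2 difference of 0.45 (edgeR adjusted p = 0.461) was -0.19 without it. Slc1a3, the glutamate carrier GLAST, had 4.75, 0.696 and 1.42 CPM in LSPCT libraries, against 5.42, 5.21 and 4.57 CPM in LSPC libraries. It did not pass with all libraries (log2 -1.15, SE 0.60, edgeR adjusted p = 0.231) and was lower without LSPCT replicate 1 (log2 -2.25, edgeR adjusted p = 0.00296). Slc1a4 (log2 -0.093, edgeR adjusted p = 0.938) and Slc1a7 (-0.38, 0.779) were below 1.4 CPM in every library and did not pass, and Slc1a4 was 0.35 without LSPCT replicate 1.

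The same library was high for macrophage markers. The ratio of LSPCT replicate 1 to the mean of LSPCT replicates 2 and 3 had a median of 4.42 over the 18 tested macrophage markers, 0.969 over the 33 tested carriers and 0.995 over all genes tested. It ranged from 0.832 to 8.29 over those markers and from 0.199 to 4.94 over those carriers. C1qa, a complement gene of macrophages, had 92.6, 8.03 and 14.3 CPM in LSPCT libraries, against 3.63, 0.339 and 2.005 CPM in LSPC libraries. C1qa was picked after its values were seen, and its rise did not pass with limma voom (adjusted p = 0.145). Nor did it pass without LSPC replicate 1, 2 or 3 (edgeR adjusted p = 0.0680, 0.0829 and 0.0743). The part of the macrophage markers' rise in the values of Slc7a8, Slc1a3 and Slc3a2 was not tested. Fewer cells of a type and less RNA per cell cannot be told apart in such libraries. Slc6a12, Slc6a13, Slc43a3, Slc36a1, Slc36a2 and Slc7a6 passed without this library as well, with log2 fold changes of 4.32, 2.12, 0.62, -0.76, -2.80 and -0.88.

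**Figure D5:**
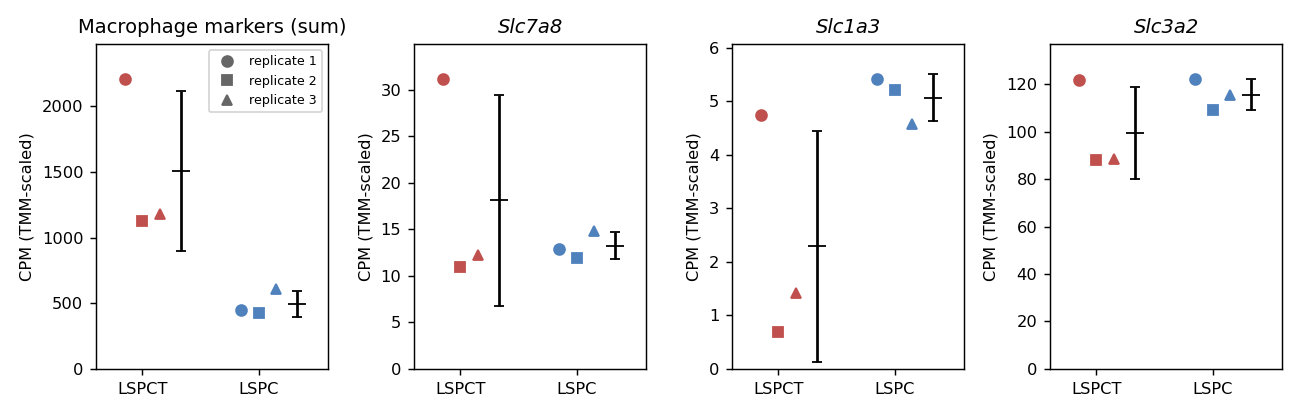
Summed macrophage markers, Slc7a8, Slc1a3 and Slc3a2 in TMM-scaled CPM (y axes, each from 0) by library (LSPCT left, LSPC right; circles, squares and triangles are replicates 1, 2 and 3; black bars are the mean and SD of 3 libraries). In LSPCT replicate 1 the markers reach 2208 CPM, and the carriers shown stand above LSPCT replicates 2 and 3. Other carriers, such as Slc6a6, stood below them in that library.

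Of 9 tested dendritic cell markers, 3 were higher and 1 lower (44.4%, against 17.2% of all genes tested). The groups did not overlap for 8 of these 9 (88.9%, against 37.7% of all genes), 7 of them above. The part of these markers in the carriers' values was not tested. Of the other tested markers, 1 of 3 erythroid genes was higher, 1 of 4 mast cell and basophil genes was lower, and 1 of 8 T, NK and B cell genes was lower. None of 4 megakaryocyte and none of 11 neutrophil maturation genes passed, by edgeR, and 1 and 0 of them had an unadjusted p under 0.05. Summed levels were 116 to 172 CPM in LSPCT and 126 to 139 CPM in LSPC libraries for erythroid markers, whose globin genes were listed at 0 in every library. They were 51.2 to 96.3 and 95.6 to 111 CPM for T, NK and B cell markers (Pax5 and Ncr1 at 0), and 154 to 215 and 178 to 208 CPM for dendritic cell markers. Neutrophil markers varied most within a group, at 334 to 796 CPM in LSPCT and 138 to 2292 CPM in LSPC libraries. The sums were 91.7 to 105 and 102 to 140.3 CPM for megakaryocyte markers (Gp6 and Treml1 at 0), and 40.2 to 51.7 and 74.2 to 85.7 CPM for mast cell and basophil markers.

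Among 26 tested carriers of amino acids, peptides and related cargo outside the rule, 2 rose and 4 fell (23.1%, against 17.2% of all genes tested). Slc6a20a, a proline carrier whose symbol ends in a letter, had no count in LSPC libraries and 1.70, 3.25 and 2.57 CPM in LSPCT libraries. It was at least 59.5-fold higher, against a floor of 3 counts over the LSPC group, and its near copy Slc6a20b did not pass (log2 -0.074, edgeR adjusted p = 0.944), so that reads could have been split between them. Slc19a1, the folate carrier, fell by 0.64 (edgeR adjusted p = 0.00652). The mitochondrial aspartate and glutamate carriers Slc25a12 and Slc25a13 fell by 0.45 and 0.44 (edgeR adjusted p = 0.0150 and 0.0152), and both missed the threshold without LSPC replicate 1 (0.0787 and 0.0682). Slc25a12 also missed it without LSPC replicate 3, and Slc25a13 without LSPCT replicates 2 and 3 and LSPC replicate 2. Without LSPC replicate 1, 1 of these outside carriers was higher and 1 lower, and without LSPC replicate 2, 1 and 2.

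Of 30 tested ATF4 targets, the genes of the amino acid deprivation response, 1 rose and 4 fell, with a median log2 fold change of 0.0028. These 5 make 16.7%, close to the 17.2% of all genes tested. The shares that passed in the lists that follow were 13.3% for eIF2 kinases and complexes, 22.2% for glutamine, glutamate and aspartate enzymes, 5.56% for branched-chain enzymes, 17.6% for arginine and polyamine enzymes, 33.3% for tryptophan enzymes, 26.1% for cystine, glutathione and NRF2 genes and 31.2% for regulators of carriers, and none was tested against the background. Phgdh, which opens serine synthesis, had 512, 573 and 565 CPM in LSPCT libraries, against 64.8, 92.0 and 57.3 CPM in LSPC libraries. Cth, which makes cysteine from cystathionine, had 0.04998, 0.186 and 0.0885 CPM in LSPCT libraries, against 1.04, 0.932 and 1.34 CPM in LSPC libraries (log2 -3.28, edgeR adjusted p = 0.00609). Those LSPCT values of Cth are 1, 4 and 2 counts, near or below the floor of 3 counts. Stc2, a secreted glycoprotein gene, fell by 5.13 (edgeR adjusted p = 0.00185). It had 2 counts in each LSPCT library, also below that floor, against 1.84 to 6.32 CPM in LSPC libraries. Sesn2, a leucine sensor, fell by 1.32 (edgeR adjusted p = 0.00176). Without LSPCT replicate 1, 2 ATF4 targets were higher and 7 lower. Of 15 genes of the eIF2 kinases and eIF2 complexes, 2 rose and none fell, and Eif2ak2, the kinase PKR, rose by 0.65 (edgeR adjusted p = 0.00351). The second, Impact, was lost when any library other than LSPCT replicate 1 was left out.

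Of 39 tested genes of amino acid sensing by mTORC1, 1 rose and 2 fell (7.69%, against 17.2% of all genes tested, median log2 0.028). Tfe3, a transcription factor of lysosomal genes, had 54.1, 58.8 and 52.8 CPM in LSPCT libraries, against 33.1, 31.0 and 39.0 CPM in LSPC libraries (log2 0.68, SE 0.11, edgeR adjusted p = 0.00438). Flcn, the folliculin gene, whose product acts on RagC at the lysosome and keeps Tfe3 in the cytoplasm, had 71.4, 68.0 and 61.1 CPM in LSPCT libraries, against 114, 96.6 and 108 CPM in LSPC libraries (log2 -0.67, SE 0.10, edgeR adjusted p = 0.00361). Neither pair of groups overlapped. Mios, a GATOR subunit, fell by 0.42 (edgeR adjusted p = 0.0207), and missed the threshold without LSPCT replicate 2 (0.0649) and without LSPC replicates 1, 2 and 3 (0.0920, 0.0877 and 0.0513).

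Of 18 glutamine, glutamate and aspartate enzymes, 1 rose and 3 fell. Glul, glutamine synthetase, had 108, 142 and 136 CPM in LSPCT libraries, against 85.4, 84.3 and 86.7 CPM in LSPC libraries (log2 0.59, edgeR adjusted p = 0.0103), and missed the threshold without LSPC replicate 1 (0.0520). The pyrimidine synthesis gene Cad fell by 0.61 (edgeR adjusted p = 0.00631) and passed without each library. The CTP synthases Ctps2 and Ctps fell by 0.43 and 0.34 (edgeR adjusted p = 0.0275 and 0.0469) and did not pass without LSPC replicate 1 (0.103 and 0.169). Ctps2 was also lost without LSPCT replicates 2 and 3 and LSPC replicate 2, and Ctps without any library other than LSPCT replicate 1, with upper quartile factors (0.0747), with no scaling factors (0.0504) and with the CPM filter (0.0513). Of 18 branched-chain amino acid enzymes, the mitochondrial transaminase gene Bcat2 alone passed, at 181, 175 and 147 CPM in LSPCT libraries, against 105, 75.3 and 93.2 CPM in LSPC libraries (log2 0.88, SE 0.14, edgeR adjusted p = 0.00455).

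Of 17 arginine, ornithine and polyamine enzymes, 1 rose and 2 fell. Pycr1, which makes proline, had 4.25, 3.44 and 3.36 CPM in LSPCT libraries, against 12.8, 13.7 and 8.76 CPM in LSPC libraries (log2 -1.67, edgeR adjusted p = 0.00277). The spermine synthase gene Sms rose by 0.60 (edgeR adjusted p = 0.00277) and the spermidine synthase gene Srm fell by 0.42 (0.0257), which did not pass without LSPC replicate 1 (0.130), LSPC replicate 2 (0.0787) or LSPCT replicates 2 and 3 (0.0677 and 0.0824). Of 9 tryptophan enzymes 3 rose, with Afmid, a kynurenine pathway gene, at 25.1, 20.01 and 18.2 CPM in LSPCT libraries, against 6.06, 6.74 and 6.46 CPM in LSPC libraries (log2 1.71, edgeR adjusted p = 0.000523). Ccbl2 passed narrowly (edgeR adjusted p = 0.0490) with 15.8 CPM in LSPCT replicate 1, against 185 and 187 CPM in LSPCT replicates 2 and 3, and was lost in 9 of 14 alternatives. These were leaving out any library other than LSPCT replicate 1, limma voom (adjusted p = 0.215), no scaling factors (0.0512), the CPM filter (0.0506) and the replicate block (0.104). The third, Kynu, rose by 2.76 (edgeR adjusted p = 0.00985). Without LSPC replicate 1 and without LSPC replicate 2, Afmid alone of these 3 passed.

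Of 23 cystine, glutathione and NRF2 target genes, 3 rose and 3 fell. Gclc, which catalyses the first step of glutathione synthesis, fell by 0.64 (edgeR adjusted p = 0.00378), and Gsr, glutathione reductase, rose by 0.58 (0.00507). Cth is also on this list, and the fourth by p was Ggt5, a gamma-glutamyl transferase gene, which rose by 1.13 (edgeR adjusted p = 0.0295) and missed the threshold without LSPC replicates 1, 2 and 3 (0.103, 0.102 and 0.0723). Of 16 regulators of carriers, 3 rose and 2 fell. Nedd4, a ubiquitin ligase of membrane proteins, had 123, 159 and 153 CPM in LSPCT libraries, against 94.3, 92.8 and 91.4 CPM in LSPC libraries (log2 0.64, edgeR adjusted p = 0.00652). Hif1a rose by 0.88 (edgeR adjusted p = 0.00391) and Mycn by 1.597 (0.0197). Mycn did not pass without LSPC replicate 1 (0.0880) or LSPC replicate 2 (0.0591).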

How the data were processed

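The deposited files hold whole-number counts per gene symbol, 1 file per library, with no normalization by the authors. The submitters' processing notes name FastQC, TopHat2 2.1.0, featureCounts, DESeq2 and mm9, with no role or order. Annotation, strand setting and handling of multiply mapped reads: not given in the sources used here. Without strand, a read in a stretch shared by overlapping genes may be counted for either gene or for none. Near copies may be counted unevenly. Per the labels' protocols, RNA came from sorted cells over Qiagen columns.

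Counts were scaled with TMM (edgeR 4.0.16, R 4.3.3; factors 0.986 to 1.01) and filtered with filterByExpr (minimum 10 counts), and all 12729 genes kept were tested with edgeR's quasi-likelihood F test, group as the only term, two-sided, with Benjamini-Hochberg adjustment. Each SE was taken by dividing the absolute log2 fold change by the root of its F statistic. A count of 0 allows up to 3 counts (0.111 to 0.150 CPM by library), which covers counting error alone. It does not cover genes missed through the annotation or through multiply mapped reads, so a 0 need not mean no transcript. Libraries of a group differed beyond sampling noise (chi-square per degree of freedom 11.6 to 50.7). The procedure was tested on simulated data.

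The carriers, lists and tests were chosen with earlier results of these data known. All carriers that passed, and those at 20 CPM or more on average that did not, are given for every library, and up to 4 passing members of each list by p; other genes, such as neighbours, were named after their values were seen. The lists held carriers outside the rule, ATF4 targets, eIF2 kinases, mTORC1 sensing, enzymes of amino acids and glutathione, regulators of carriers and markers of cell types. Alternatives were other scaling, other filters, DESeq2 1.42.0, limma voom (limma 3.58.1), the replicate number as a block and leaving out each library. Some genes are not reported here.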

Additional observations from a re-analysis of the deposited data

How the results depend on the processing

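Slc6a12, Slc6a13, Slc43a3, Slc36a1, Slc36a2 and Slc7a6 passed, in the same direction, under all 14 alternatives. Of 457 alternative values of single carriers, 438 kept direction and side of the threshold, 11 newly passed and 8 changed sign, the last in 6 carriers that did not pass with all libraries. All sign changes came from leaving out a library, with log2 fold changes over those 6 fits of -0.85 to 0.35 for Slc1a4 (positive without LSPCT replicate 1), -1.54 to 0.15 for Slc1a7 (0.055 without LSPCT replicate 2, 0.15 without LSPC replicate 2), -0.033 to 0.13 for Slc36a4 (negative without LSPCT replicate 3 and, at -0.0095, LSPC replicate 3), -0.25 to 0.63 for Slc6a8 and -0.19 to 0.71 for Slc7a8 (both negative without LSPCT replicate 1), and -0.16 to 0.056 for Slc7a7 (positive without LSPC replicate 3). With DESeq2, 4 carriers were higher and 5 lower, and 21.7% of all genes passed. Leaving out each library in turn gave 3 to 5 higher and 3 to 6 lower carriers, and 1029 to 3249 of all genes, where edgeR passed 2189 with all libraries. The cause was not tested. With the replicate number as a block, 1792 genes and the same 6 carriers passed. Of the other named genes followed through the alternatives, Tuba8 (edgeR adjusted p = 0.0611), Mios (0.0527), Ctps2 (0.0528), Ctps (0.0882), Ggt5 (0.0538) and Ccbl2 (0.104) did not. Deviations of same-numbered libraries from their group means correlated at 0.19, -0.20 and 0.11 for numbers 1 to 3, so the numbers were not taken as pairs, and LSPCT replicate 2 correlated best with another number. The 26 carriers not tested had at most 26 counts in a library, and 12 of them had no count in any library. Whether depth limits these carriers was not tested.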

Other observations

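Genes of the response to high tonicity were looked at after the values of the betaine carrier Slc6a12 had been seen. Nfat5, the transcription factor of that response, had 108, 157 and 153 CPM in LSPCT libraries, against 63.3, 66.1 and 76.4 CPM in LSPC libraries. The groups did not overlap, and Nfat5 rose (log2 1.02, SE 0.15, edgeR adjusted p = 0.00369), also under each of the 14 alternatives. Slc5a3, the myo-inositol carrier, was at 6.95 to 10.8 CPM in LSPCT and 5.81 to 7.17 CPM in LSPC libraries and did not pass (log2 0.51, edgeR adjusted p = 0.160). Hspa4l, a heat shock protein gene, fell by 0.46 (edgeR adjusted p = 0.0135) and missed the threshold without LSPC replicate 1 (0.0759). The aldose reductase gene Akr1b3 was listed at 0 in every library, which may reflect the annotation or multiply mapped reads and was not tested.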
